A study of Mus musculus with 8 samples.

Results

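Mitosis and kinetochore genes were lower in NMuMG cells transfected with siKlf4 than in cells transfected with siControl, and most of all where TGFβ was also given. The set holds 56 listed genes of mitotic entry, the spindle checkpoint, the kinetochore, the spindle, anaphase, chromosome condensation, the chromosomal passenger complex and cytokinesis. A gene was taken as measured where a probe set names it and no other gene, which holds for 55 of the 56 among 19937 measured genes. The exception is Ccnb1, a B-type cyclin. NMuMG is an untransformed mouse mammary gland epithelial line that undergoes an epithelial-mesenchymal transition (EMT) under TGFβ. There were 4 groups of 2 arrays each, namely siKlf4 with TGFβ, siControl with TGFβ, siKlf4 without TGFβ and siControl without TGFβ. TGFβ was given at 2 ng/ml for 2 days. All cells were of this line and all had been transfected with siRNA, and siKlf4 was a pool of siRNAs against Klf4, so no group lacks the gene by mutation. Values are log2 array values after Robust Multi-Array (RMA) normalization, differences are on this scale, and levels of different genes are not compared because each has its own probes. A gene was called lower or higher in limma, a linear model with variances moderated across genes, where p adjusted by Benjamini-Hochberg over all 19937 genes was under 0.05. No source says that both arrays of a group were made from separate cultures, so the p-values reflect the spread of these 8 arrays alone, which can be technical, and their number limits the precision.

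In a dividing cell, the kinase Cdk1 bound to its cyclins starts mitosis, condensin folds the chromosomes, and kinetochores built on the centromeres take hold of spindle microtubules. Until every kinetochore is attached, the spindle checkpoint holds back the anaphase promoting complex, a ubiquitin ligase whose activation lets separase cut cohesin and part the sister chromatids. Most of these genes are transcribed in a wave late in the cell cycle, through MuvB complexes with the Myb family member Mybl2 and with Foxm1, and they are low in resting cells. The MuvB complex binds a short promoter element known as the cell cycle genes homology region (CHR, TTTGAA), often near a CCAAT box bound by the factor NF-Y.

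Klf4 served as the check of the knockdown on these arrays. The paper reports efficient loss of Klf4 under the siRNA pool in NMuMG cells, with immunoblots made without and with TGFβ. Besides protein, it measured Klf4 mRNA in siControl and siKlf4 cells by quantitative RT-PCR, both without TGFβ and after 2 days of it. On the log2 scale Klf4 read 7.43 and 7.24 on the arrays labelled siKlf4 with TGFβ, against 7.46 and 7.46 on those labelled siControl with TGFβ. Without TGFβ it read 8.03 and 7.91 under the siKlf4 label, against 8.60 and 8.43 under the siControl label. The difference was called lower without TGFβ (−0.54, standard error 0.0987, limma adjusted p = 0.00369) and was not called with TGFβ (−0.13, adjusted p = 0.444), so the directions below hold for the arrays as labelled. Array medians ranged over 4.9 to 5.0 on the log2 scale. Of 8 epithelial markers, 6 lay above the median of every array, among them Krt8 (13.0 to 13.4) and Cdh1 (10.2 to 10.9), while Epcam (3.88 to 4.09) and Cldn7 lay below every one. In both settings siKlf4 went with higher Krt7 (0.82 with and 1.11 without TGFβ), Krt18 and Krt8 and with lower Krt19 (−1.04 and −0.99), and the other 4 were not called. Of the markers of other cell types, all 4 endothelial, 2 of 3 adipocyte, 2 of 5 leukocyte (Ptprc and Cd79a) and 1 of 4 fibroblast genes (Dcn) lay below every array's median. The leukocyte genes Cd68 (5.59 to 7.58) and Csf1r (5.59 to 6.84), the fibroblast genes Col1a1 (6.21 to 7.59) and Col3a1 and the adipocyte gene Plin1 lay above every one. The log2 values of the 5 leukocyte markers summed to between 25.1 and 25.3 in the siKlf4 arrays with TGFβ and to between 23.7 and 24.2 in the siControl arrays with TGFβ. Without TGFβ they summed to between 25.1 and 25.2 in siKlf4 and to between 24.3 and 24.7 in siControl arrays, and 2 of the 5 were called higher with siKlf4 under TGFβ (Csf1r and Cd68) and 1 without (Csf1r). The 4 fibroblast markers summed to between 21.0 and 21.5 with siKlf4 and TGFβ, against 20.0 to 20.6 with siControl and TGFβ, and without TGFβ to between 21.4 and 21.7 with siKlf4, against 19.8 to 20.6 with siControl, and 1 of the 4, Col1a1, was called higher in both settings. No endothelial or adipocyte marker was called by limma for siKlf4, and before adjustment 2 of the 4 endothelial markers with TGFβ, Cdh5 and Tek, had a p under 0.05. The part of these shifts in the results below was not tested.

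The promoter letters are shown for 8 of the 10 genes that fell most with siKlf4 under TGFβ among the members with a CHR match in their window. The genes were thus picked for holding a match, and Melk, Nuf2 and Nek2, which fell more than some of them, have a window with no match. The stretches come from RefSeq windows on GRCm38.p6, which run from 250 bases before to 50 after each start site, and are written 5′ to 3′ on the strand of the gene. Capitals mark the CHR letters TTTGAA, or TTCAAA where they lie on the other strand, and in the longer stretches of Kif11 and Cdc20 also the CCAAT box or its reverse ATTGG.
Ncapg2 (chr12:116405406-116405435, plus strand): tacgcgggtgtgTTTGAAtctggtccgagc
Cenpn (chr8:116921719-116921748, plus strand): gccattggcggcTTCAAAagcacctcggcg
Kif11 (chr19:37376282-37376381, plus strand): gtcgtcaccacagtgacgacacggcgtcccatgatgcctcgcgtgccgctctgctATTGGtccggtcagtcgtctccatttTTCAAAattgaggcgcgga
Mki67 (chr7:135716460-135716489, minus strand): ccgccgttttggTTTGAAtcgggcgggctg
Kif15 (chr9:122951050-122951079, plus strand): tggggcgccaaaTTCAAAtctgcggccatc
Cep55 (chr19:38054996-38055025, plus strand): acagccgcgggaTTCAAActcccggaagcg
Ect2 (chr3:27153822-27153851, minus strand): cgactggattttTTTGAAtcggaggcggca
Cdc20 (chr4:118437344-118437443, minus strand): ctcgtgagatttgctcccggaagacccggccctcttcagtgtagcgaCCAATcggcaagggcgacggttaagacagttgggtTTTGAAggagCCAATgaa
These matches lie close to the start site, at position −18 in Ncapg2, −9 in Cenpn, −19 in Kif11 and in Kif15, and −18 in Cdc20. That of Mki67 lies farther before it, at −98. Cep55 and Ect2 each have 2 windows, and the matches shown lie after the start site of a window, at positions 24 and 15. Over both windows, matches lay at −33 and 24 in Cep55 and at −138, −114, 15 and 39 in Ect2. These can repeat the same letters counted from different start sites.

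With TGFβ, all 55 measured members were lower in the siKlf4 than in the siControl arrays, with a median log2 difference of −1.50, a 2.84-fold decrease. Without TGFβ, 53 were lower, none was higher even at an unadjusted limma p under 0.05, and the median was −0.78, a 1.71-fold decrease. Over all genes tested, 11.9% were called lower and 12.3% higher with TGFβ, and 9.71% were called lower and 9.98% higher without it, and the median over all genes was −0.03 with and 0.00 without TGFβ. In each of the 55 genes, both siKlf4 arrays lay below both siControl arrays with TGFβ and also without it, an order that 34.9% of all genes showed with TGFβ and 24.4% without. Set against the mean of the untreated siControl arrays, the median level of the members was −1.60 and −1.60 on the siKlf4 arrays with TGFβ and −0.19 and −0.19 on the siControl arrays with TGFβ. Without TGFβ it was −0.74 and −0.78 on the siKlf4 arrays and 0.06 and −0.06 on the siControl arrays. In bulk RNA, fewer cells in mitosis and less of these RNAs per cell cannot be told apart. By flow cytometry, the paper reports a G0/G1 arrest of siKlf4 against siControl NMuMG cells under TGFβ. It also reports fewer siKlf4 cells with TGFβ, and no such effect on cell number without it. The part of this in the array values was not tested.

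**Figure D1:**
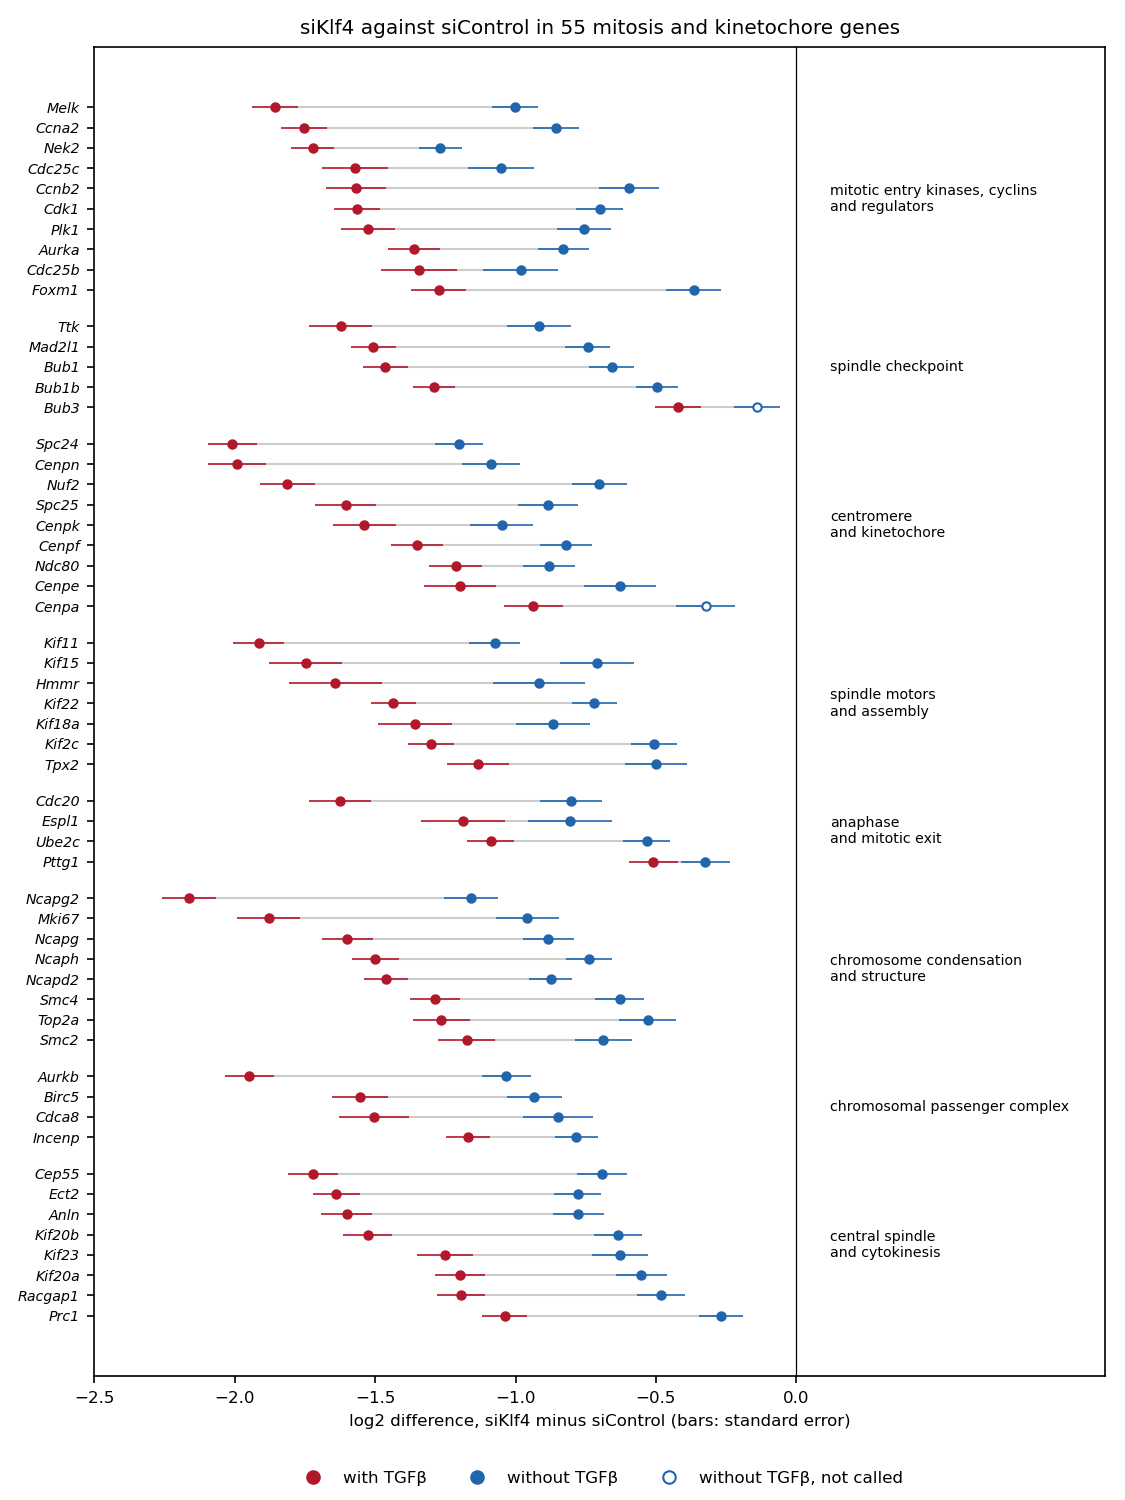
Log2 difference of siKlf4 minus siControl (horizontal axis) for the 55 measured mitosis and kinetochore genes in 8 groups by role, with TGFβ in red and without TGFβ in blue, bars giving the standard error from limma. All points lie below 0, each red point lies left of its blue one, and the 2 open points, Bub3 and Cenpa without TGFβ, were not called.

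The kinases, cyclins and phosphatases of mitotic entry fell in both settings, all 10 measured with TGFβ (median −1.57) and all 10 without (median −0.84). Cdk1, the kinase that drives mitotic entry, had log2 values of 8.62 and 8.60 in siKlf4 arrays with TGFβ, against 10.13 and 10.22 in siControl arrays with TGFβ. Without TGFβ it had 9.41 and 9.36 in siKlf4 arrays, against 10.15 and 10.02 in siControl arrays. The siKlf4 arrays with TGFβ were thus the lowest, and the siControl arrays with and without TGFβ overlapped. The difference was −1.56 with TGFβ (standard error 0.0827, limma adjusted p = 1.89e-06) and −0.70 without (0.000302). Its partners Ccna2, which acts in S phase and at mitotic entry, and Ccnb2, a B-type cyclin, differed by −1.75 and −1.57 with TGFβ and by −0.85 and −0.60 without. Melk, a cell cycle kinase, fell most in this group with TGFβ, by 1.86 on the log2 scale, and Nek2, a kinase that helps to separate centrosomes, fell most without it. Nek2 had values of 7.05 and 7.05 in siKlf4 arrays with TGFβ, against 8.79 and 8.76 in siControl arrays with TGFβ, and of 7.97 and 7.91 in siKlf4 arrays without TGFβ, against 9.25 and 9.17 in siControl arrays without it. All 4 groups of Nek2 were separate, and its differences were −1.72 with and −1.27 without TGFβ. The polo-like kinase Plk1 (−1.52 and −0.76), the centrosomal kinase Aurka (−1.36 and −0.83) and the phosphatases that activate Cdk1, Cdc25c (−1.57 and −1.05) and Cdc25b (−1.34 and −0.98), were lower with and without TGFβ. Foxm1, a transcription factor of the late cell cycle genes, had 7.58 and 7.70 in siKlf4 arrays with TGFβ, against 8.94 and 8.88 in siControl arrays with TGFβ. Without TGFβ it had 8.59 and 8.79 in siKlf4 arrays, against 9.12 and 8.99 in siControl arrays, which lay closer together. Its difference was −1.27 with TGFβ (limma adjusted p = 1.43e-05) and −0.37 without (0.0274), and the second call was lost when replicate 1 of siControl or of siKlf4 without TGFβ was left out.

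Of the 5 spindle checkpoint genes, all were lower with TGFβ (median −1.46) and 4 without it (median −0.66). Ttk, the kinase that starts the checkpoint signal at kinetochores, had values of 6.01 and 5.82 in siKlf4 arrays with TGFβ, against 7.53 and 7.55 in siControl arrays with TGFβ. Without TGFβ it had 6.79 and 6.60 in siKlf4 arrays, against 7.74 and 7.48 in siControl arrays. Its differences were −1.62 and −0.92, the largest of the group in both settings. Mad2l1 and Bub1b, which bind and hold Cdc20 in the checkpoint complex, differed by −1.51 and −1.29 with TGFβ and by −0.74 and −0.50 without, and the checkpoint kinase Bub1 by −1.46 and −0.66. Bub3, which brings Bub1 to kinetochores, was the member that differed least. It had 9.39 and 9.42 in siKlf4 arrays with TGFβ, against 9.78 and 9.87 in siControl arrays with TGFβ, and 9.60 and 9.56 in siKlf4 arrays without TGFβ, against 9.78 and 9.66 in siControl arrays without it. The difference with TGFβ was called (−0.42, standard error 0.0816, limma adjusted p = 0.00432), and that without was not (−0.14, adjusted p = 0.324).

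All 9 centromere and kinetochore genes were lower with TGFβ (median −1.54) and 8 without (median −0.88). The Ndc80 complex, the part of the kinetochore that grips microtubules, has 4 subunits, and each was lower in both settings. Spc24 had values of 6.36 and 6.19 in siKlf4 arrays with TGFβ, against 8.25 and 8.31 in siControl arrays with TGFβ, and of 7.68 and 7.75 in siKlf4 arrays without TGFβ, against 8.91 and 8.93 in siControl arrays without it. None of its groups overlapped, and its difference with TGFβ was −2.01 (standard error 0.086, limma adjusted p = 7.05e-07), a 4.02-fold decrease. Nuf2 had 6.39 and 6.50 in siKlf4 arrays with TGFβ, against 8.18 and 8.33 in siControl arrays with TGFβ, and 8.11 and 7.91 in siKlf4 arrays without TGFβ, against 8.76 and 8.67 in siControl arrays without it. The siKlf4 arrays with TGFβ thus lay more than 1 log2 unit below all others in Nuf2, whose differences were −1.81 with and −0.70 without TGFβ. The other two subunits, Spc25 (−1.61 and −0.88) and Ndc80 (−1.21 and −0.88), were also lower. Cenpn, which reads the centromeric nucleosome, differed by −1.99 and −1.09, and Cenpk, of the same inner kinetochore network, by −1.54 and −1.05. Cenpf, a large kinetochore protein, differed by −1.35 and −0.82 and the kinetochore kinesin Cenpe by −1.20 and −0.63. Cenpa, the histone variant that marks centromeres, had 8.06 and 7.92 in siKlf4 arrays with TGFβ, against 8.90 and 8.95 in siControl arrays with TGFβ, and 8.81 and 9.10 in siKlf4 arrays without TGFβ, against 9.26 and 9.30 in siControl arrays without it. It differed by −0.94 with TGFβ (limma adjusted p = 0.000165) and by −0.32 without, which was not called (adjusted p = 0.0653).

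All 7 genes of spindle motors and spindle assembly were lower in both settings, with medians of −1.44 with TGFβ and −0.72 without. Kif11, the kinesin that pushes the spindle poles apart, had values of 7.65 and 7.69 in siKlf4 arrays with TGFβ, against 9.63 and 9.54 in siControl arrays with TGFβ. Without TGFβ it had 8.76 and 8.56 in siKlf4 arrays, against 9.75 and 9.71 in siControl arrays. It fell by 1.91 on the log2 scale with TGFβ (standard error 0.0908, limma adjusted p = 1.11e-06) and by 1.07 without (4.31e-05). Kif15, a kinesin that can share the work of Kif11, had 6.37 and 6.13 in siKlf4 arrays with TGFβ, against 8.11 and 7.88 in siControl arrays with TGFβ, and 7.11 and 6.96 in siKlf4 arrays without TGFβ, against 7.88 and 7.60 in siControl arrays without it. Its differences were −1.75 and −0.71. Hmmr, a hyaluronan receptor that also binds the spindle, differed by −1.64 and −0.92, and Tpx2, which activates Aurka on the spindle, by −1.13 and −0.50. The chromosome-bound kinesin Kif22 (−1.44 and −0.72), the kinesin Kif18a, which damps chromosome movements (−1.36 and −0.87), and the microtubule-shortening kinesin Kif2c (−1.30 and −0.51) were also lower. The call of Tpx2 without TGFβ was lost when replicate 2 of siKlf4 without TGFβ was left out.

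The 4 genes of anaphase and mitotic exit were each lower in both settings, with medians of −1.14 with TGFβ and −0.67 without. Cdc20, the activator of the anaphase promoting complex, had values of 6.86 and 6.95 in siKlf4 arrays with TGFβ, against 8.54 and 8.52 in siControl arrays with TGFβ, and of 7.89 and 8.23 in siKlf4 arrays without TGFβ, against 8.83 and 8.89 in siControl arrays without it. The groups were separate, with differences of −1.62 and −0.80. Separase (Espl1), the protease that cuts cohesin, differed by −1.19 and −0.81, and Ube2c, the ubiquitin-conjugating enzyme of the complex, by −1.09 and −0.53. Pttg1, or securin, which holds separase inactive, differed least in the group, by −0.51 with TGFβ (limma adjusted p = 0.00224) and by −0.32 without (0.0299). The call of Pttg1 without TGFβ was lost when replicate 1 of siControl without TGFβ or any of the 4 siKlf4 arrays was left out.

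All 8 genes of chromosome condensation and structure were lower in both settings, with medians of −1.48 with TGFβ and −0.81 without. Ncapg2, a subunit of condensin II, had the largest decrease of all members with TGFβ. Its values were 6.15 and 6.03 in siKlf4 arrays with TGFβ, against 8.19 and 8.31 in siControl arrays with TGFβ, and 8.03 and 7.95 in siKlf4 arrays without TGFβ, against 9.24 and 9.06 in siControl arrays without it. The siControl arrays with TGFβ and the siKlf4 arrays without it were thus close to each other, and both lay between the other groups. Ncapg2 differed by −2.16 with TGFβ (standard error 0.0959, limma adjusted p = 8.21e-07), a 4.48-fold decrease, and by −1.16 without. The subunits of condensin I, Ncapg (−1.60 and −0.88), Ncaph (−1.50 and −0.74) and Ncapd2 (−1.46 and −0.87), and the core subunits of both condensins, Smc4 (−1.29 and −0.63) and Smc2 (−1.17 and −0.69), were lower too. Mki67, the proliferation marker that coats mitotic chromosomes, had 7.84 and 7.83 in siKlf4 arrays with TGFβ, against 9.68 and 9.75 in siControl arrays with TGFβ, and 9.41 and 9.24 in siKlf4 arrays without TGFβ, against 10.44 and 10.13 in siControl arrays without it. None of its groups overlapped, and its differences were −1.88 and −0.96. Top2a, the topoisomerase that untangles sister chromatids, differed by −1.26 and −0.53 on the brighter of its 2 probe sets, and by −0.76 and −0.40 when both were averaged.

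The 4 genes of the chromosomal passenger complex, which corrects faulty attachments and then guides cytokinesis, were lower in both settings, with medians of −1.53 and −0.89. Its kinase Aurkb had values of 7.39 and 7.34 in siKlf4 arrays with TGFβ, against 9.30 and 9.33 in siControl arrays with TGFβ, and of 8.73 and 8.93 in siKlf4 arrays without TGFβ, against 9.87 and 9.85 in siControl arrays without it. All groups were separate, and Aurkb differed by −1.95 with TGFβ (limma adjusted p = 8.5e-07) and by −1.03 without (4.32e-05). Survivin (Birc5) differed by −1.55 and −0.93, borealin (Cdca8) by −1.50 and −0.85, and the scaffold Incenp by −1.17 and −0.78.

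The 8 genes of the central spindle and cytokinesis were also lower in both settings, with medians of −1.39 with TGFβ and −0.63 without. Cep55, which recruits the machinery that cuts the last bridge between daughter cells, had values of 7.31 and 7.41 in siKlf4 arrays with TGFβ, against 9.05 and 9.11 in siControl arrays with TGFβ, and of 8.18 and 8.29 in siKlf4 arrays without TGFβ, against 9.00 and 8.85 in siControl arrays without it. Its differences were −1.72 and −0.69. Ect2, the exchange factor that activates RhoA at the cleavage site, had 9.17 and 9.08 in siKlf4 arrays with TGFβ, against 10.75 and 10.78 in siControl arrays with TGFβ, and 9.90 and 9.79 in siKlf4 arrays without TGFβ, against 10.67 and 10.57 in siControl arrays without it. In Cep55 and Ect2, the siControl arrays with TGFβ lay above those without it. The cleavage furrow scaffold Anln (−1.60 and −0.78), the kinesins Kif20b (−1.53 and −0.64) and Kif20a (−1.20 and −0.55), and the centralspindlin subunits Kif23 (−1.25 and −0.63) and Racgap1 (−1.19 and −0.48) were lower as well. Prc1, which bundles the microtubules of the central spindle, differed by −1.04 with TGFβ and by only −0.27 without (limma adjusted p = 0.0439), and the second call was lost when any of the 8 arrays was left out.

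**Figure D2:**
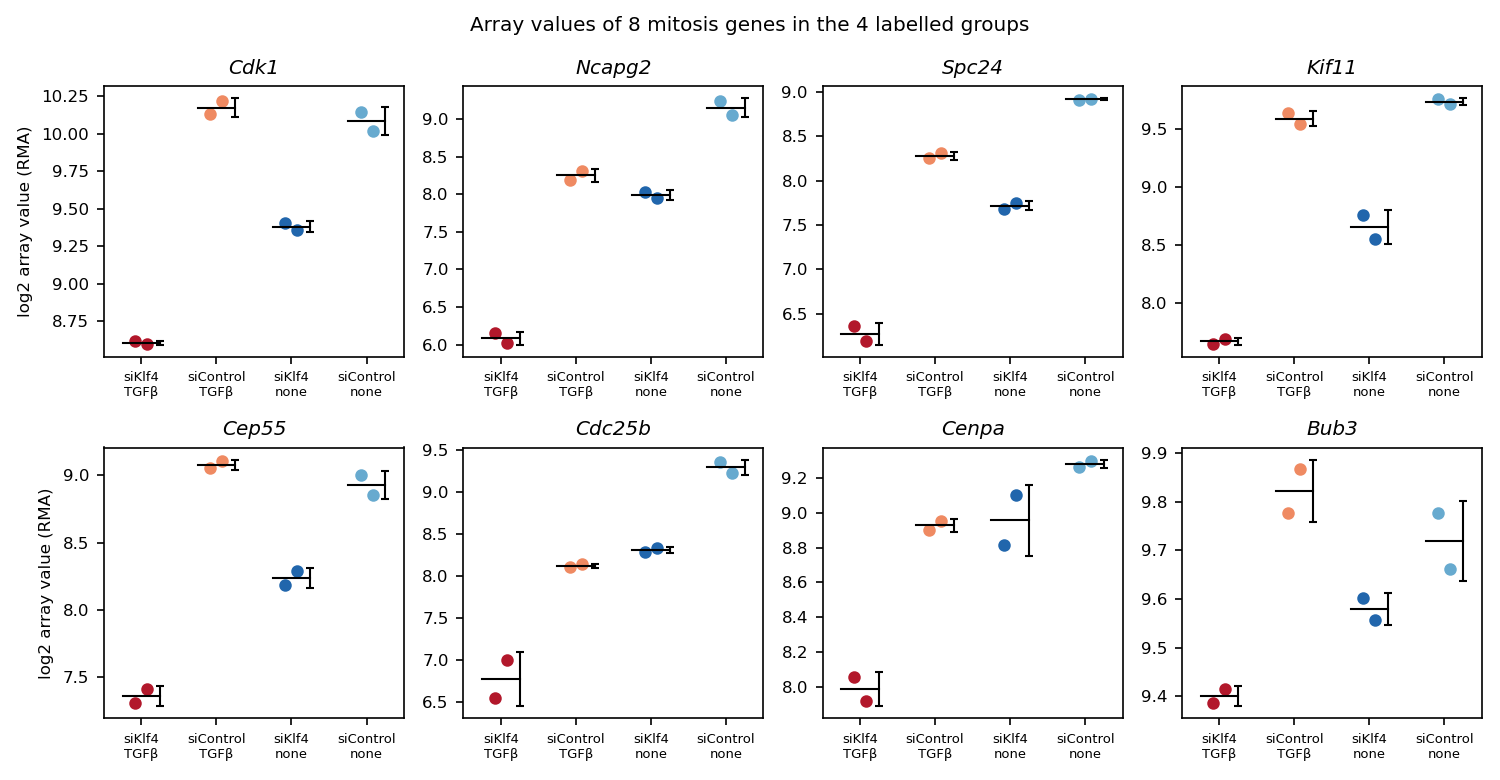
Log2 array values (vertical axes, which differ between panels and do not start at 0) of 8 mitosis genes on the 2 arrays of each of the 4 groups, with the group mean as a line and the SD beside it. In all 8 genes the 2 arrays of siKlf4 with TGFβ are the lowest, from 6.15 and 6.03 in Ncapg2 to 9.39 and 9.42 in Bub3, and in Cdk1, Kif11 and Cep55 the siControl arrays with and without TGFβ lie close together.

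TGFβ itself went with a small shift of these genes in siControl cells and with a large one in siKlf4 cells. In siKlf4 arrays, 54 of the 55 members were lower with TGFβ than without, against 6.87% of all genes called lower and 6.01% called higher, with a median of −0.89. In siControl arrays, 17 members were lower with TGFβ and none was higher even at an unadjusted limma p under 0.05, against 6.65% of all genes called lower and 5.81% called higher, with a median of −0.19. Both TGFβ arrays lay below both arrays without it in all 55 members in siKlf4 (26.5% of all genes) and in 35 members in siControl (24.3% of all genes). Of the 55, 46 had a negative and 9 a positive TGFβ difference in siControl arrays. The member not called in siKlf4 arrays was Bub3, at −0.18 (limma adjusted p = 0.228). The calls of Kif18a, Hmmr, Pttg1 and Kif23 in siKlf4 arrays were lost without replicate 2 of siKlf4 with TGFβ, and those of Kif18a and Pttg1 also without any of the other siKlf4 arrays.

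The 17 genes lower with TGFβ in siControl arrays included 4 of mitotic entry (Cdc25b, Melk, Cdc25c and Nek2), 4 of the kinetochore (Spc24, Spc25, Nuf2 and Cenpn), 4 of condensation (Ncapg2, Ncapg, Mki67 and Ncapd2) and 3 of the passenger complex (Aurkb, Birc5 and Incenp). Espl1 and Mad2l1 were the others, and none of the 7 spindle genes or of the 8 cytokinesis genes was called by limma, where 2 and 0 of them were lower at an unadjusted p under 0.05. Cdc25b had the largest decrease, with 8.10 and 8.14 in siControl arrays with TGFβ, against 9.35 and 9.23 in siControl arrays without it. In siKlf4 arrays it had 6.55 and 7.0 with TGFβ, against 8.28 and 8.33 without. Its differences were −1.17 in siControl (standard error 0.134, limma adjusted p = 0.000837) and −1.53 in siKlf4 arrays. Ncapg2 followed at −0.90 in siControl and −1.90 in siKlf4 arrays, and Ncapg at −0.68 and −1.40. At the other end, Kif15 had a difference of 0.25 in siControl arrays, which was not called (adjusted p = 0.283), and −0.78 in siKlf4 arrays, and Kif20b had 0.17 and −0.72. The count of 17 was 8 without replicate 1 or replicate 2 of siControl with TGFβ and 9 without replicate 1 of siControl without TGFβ. Cdc25b, Melk, Spc24, Spc25, Ncapd2, Ncapg, Ncapg2 and Aurkb were the 8 genes called whichever array was left out. In 48 of the 55 members, replicate 1 of the untreated siControl arrays was above replicate 2, and the median TGFβ difference in siControl was −0.10 without replicate 1 and −0.26 without replicate 2.

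The siKlf4 decrease was larger with TGFβ than without it in all 55 members, and the interaction, which is the difference between these 2 decreases, was called in 32 of them. Over all genes, the interaction was called lower in 0.978% and higher in 0.547%. The median interaction of the members was −0.72, against −0.03 over all genes. It was largest in Nuf2 (−1.11, standard error 0.14, limma adjusted p = 0.011), Kif15 (−1.04, 0.0324), Cep55 (−1.03, adjusted p = 0.010) and Ncapg2 (−1.01, 0.0128). By role, it was called in 7 of 8 cytokinesis genes, 7 of 8 condensation genes, 6 of 10 genes of mitotic entry, 4 of 7 spindle genes, 3 of 5 checkpoint genes, 3 of 9 kinetochore genes, 1 of 4 genes of anaphase and 1 of 4 of the passenger complex. It was smallest in Pttg1 (−0.19, adjusted p = 0.623), Bub3 (−0.28), Ndc80 (−0.33) and Cdc25b (−0.36), none of which was called. The count of 32 rested on all arrays. It was 0 without replicate 2 of siControl with TGFβ and without replicate 1 or 2 of siKlf4 with TGFβ, and 1 (Nuf2) without replicate 1 of siControl with TGFβ. It was 11 without replicate 2 and 31 without replicate 1 of siControl without TGFβ, and 21 and 22 without replicate 1 and 2 of siKlf4 without TGFβ. Before adjustment, between 49 and 52 of the 55 members had a negative interaction at a limma p under 0.05 in these fits, against 52 with all arrays. For Top2a the interaction was −0.74 (adjusted p = 0.0457) on its brighter probe set and −0.36 (adjusted p = 0.387) when both were averaged.

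**Figure D3:**
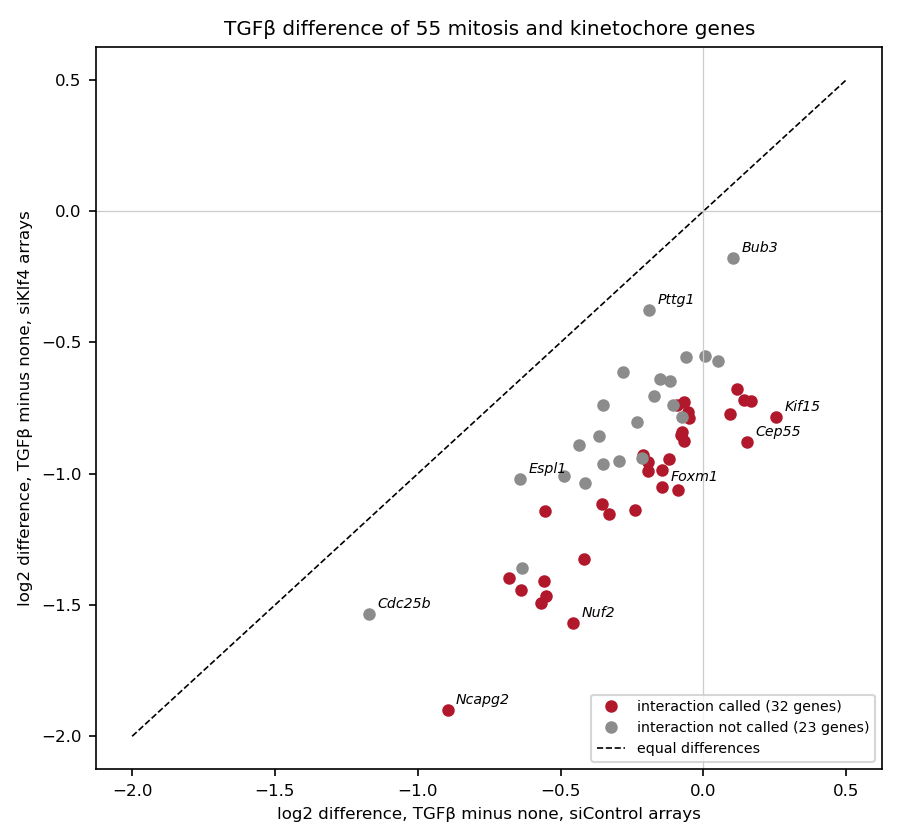
Log2 difference of TGFβ minus none in siKlf4 arrays (vertical axis) against that in siControl arrays (horizontal axis), 1 point per measured member, with the 32 members whose interaction was called in red and the other 23 in grey. All 55 points lie below the dashed line of equal differences, from Ncapg2 at −1.90 and −0.90 to Bub3 at −0.18 and 0.10.

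Combined over the comparisons, the members fell into 6 patterns. There were 22 that were lower with siKlf4 in both settings, lower with TGFβ in siKlf4 arrays and called in the interaction but not for TGFβ in siControl arrays, among them Cdk1, Ccnb2, Ccna2, Plk1, Foxm1, Bub1, Bub1b, Kif11, Kif15, Cdc20, Top2a and all cytokinesis genes but Kif23. Another 14 had the same calls without the interaction, among them Aurka, Ttk, Cenpe, Cenpf, Ndc80, Tpx2, Hmmr and Ube2c. There were 10 that were called lower in all 5 comparisons, namely Melk, Mad2l1, Cenpn, Nuf2, Spc24, Ncapd2, Ncapg, Ncapg2, Mki67 and Aurkb. A further 7 were lower in the 4 pairwise comparisons without a called interaction (Nek2, Cdc25b, Cdc25c, Spc25, Espl1, Birc5 and Incenp). The last patterns had 1 gene each, Cenpa, called lower with siKlf4 under TGFβ and with TGFβ in siKlf4 arrays, and Bub3, called lower only with siKlf4 under TGFβ.

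Other genes of mitosis, from lists chosen with earlier results of these data known, included lists with called decreases alone and lists with calls in both directions. Of 49 measured further kinetochore and spindle genes, 43 were lower with TGFβ (median −1.24) and 39 without (median −0.70), and none was higher even at an unadjusted limma p under 0.05. Oip5, which helps to load Cenpa onto centromeres, had 5.08 and 5.13 in siKlf4 arrays with TGFβ, against 6.90 and 7.01 in siControl arrays with TGFβ, and differed by −1.85 and by −0.99 without TGFβ, while the kinetochore gene Zwint differed by 0.04 and −0.01 and was not called. Of 14 subunits and partners of the anaphase promoting complex, 5 were lower with TGFβ (median −0.16) and 1 without (median −0.03), with Ube2s, its chain-extending enzyme, at −0.53 and −0.03. The 11 cohesin genes had 4 lower and 2 higher with TGFβ (median −0.19) and 3 lower without (median −0.16). Among them, the acetyltransferase Esco2 differed by −1.27 and −0.98, while its relative Esco1 was higher with TGFβ, at 0.42. Of 22 regulators of late cell cycle transcription, 13 were lower and 1 higher with TGFβ, and 10 were lower and 1 higher without. Mybl2, the Myb protein of the MuvB complex, differed by −1.51 and −0.67, the repressor E2f8 by −1.62 and −0.99, and Nfya, a subunit of the CCAAT-binding factor, was the gene called higher, at 0.45 and 0.31. Of 39 DNA replication genes, 38 were lower with TGFβ (median −0.99) and 35 without (median −0.60). In siControl arrays, TGFβ went with lower values in 27 of these 39 replication genes (median −0.43) and with a higher value in 1, Ccne1 (0.29), against lower values in 17 of the 55 members (median −0.19). The interaction was called in 11 of the 39 replication genes and in 6 of the 49 further kinetochore and spindle genes. It was called in 1 of the 22 regulators, 0 of the 14 genes of the anaphase promoting complex and 0 of the 11 cohesin genes. No test was made between these lists.

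**Figure D4:**
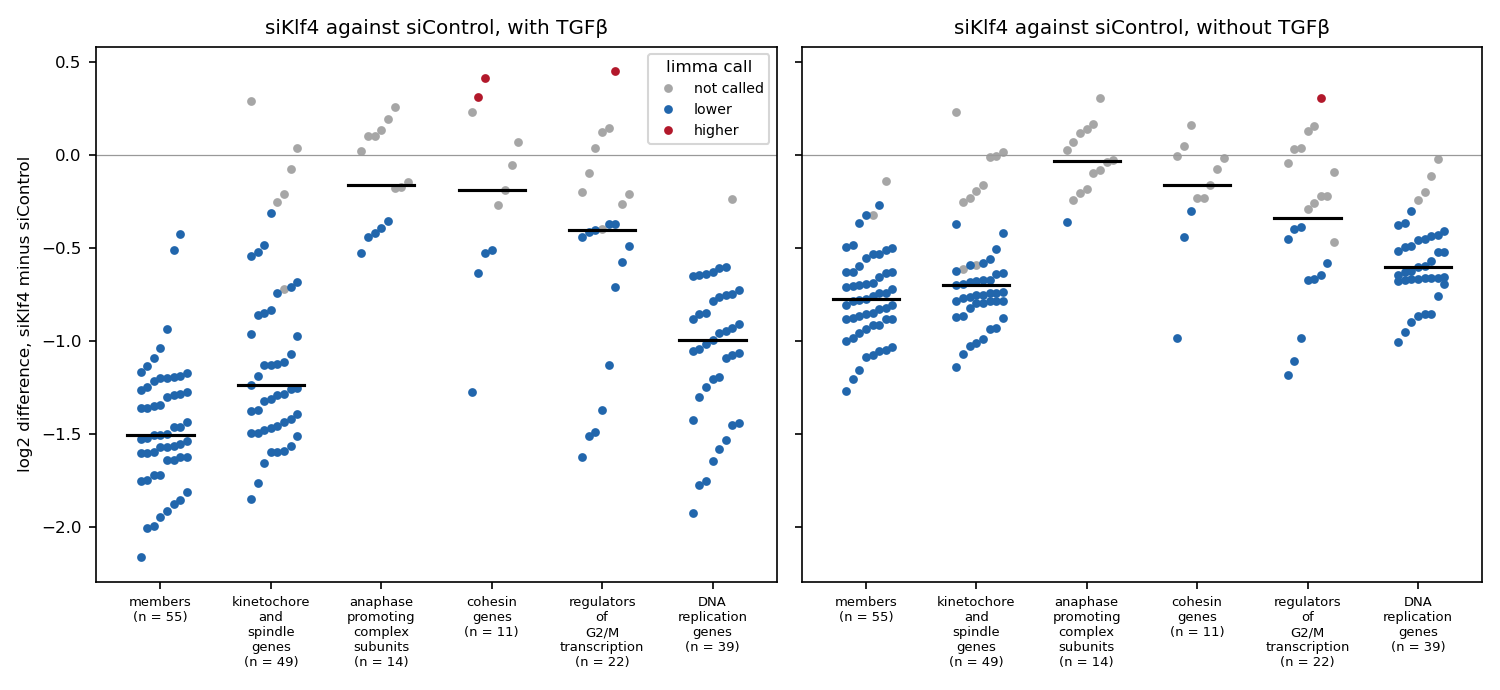
Log2 difference of siKlf4 minus siControl (vertical axis) with TGFβ (left) and without TGFβ (right) for the mitosis and kinetochore genes and 5 other lists, 1 point per gene, coloured by its limma call, with the list's median as a bar. The medians of the members, −1.50 and −0.78, lie lowest, next to those of the further kinetochore and spindle genes, −1.24 and −0.70, while those of the anaphase promoting complex lie near 0, at −0.16 and −0.03.

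Promoter windows in RefSeq matched 47 of the 56 members by symbol, and no window was matched for Ccna2, Cdc25c, Foxm1, Spc24, Tpx2, Smc4, Aurkb, Incenp and Kif20a. The letters TTTGAA of the CHR, searched on both strands, were in the windows of 34 members (72.3%), against 20.2% of all 27025 genes with a window. From 100 bases before the start site to 50 after it, they were in 32 members (68.1%), against 9.23% of all genes. The letters CCAAT, also on both strands, were in 33 members (70.2%), against 41.1% of all genes. A CHR match near the start and a CCAAT anywhere in the window were held by 26 members (55.3%), against 3.65% of all genes. None of these motifs contains another. By role, the CHR letters were near the start in all 7 cytokinesis genes with a window, in 5 of 7 condensation genes, 5 of 8 kinetochore genes and 4 of 8 genes of mitotic entry. Of the 46 further kinetochore and spindle genes with a window, 41.3% held the CHR letters, 32.6% held them near the start and 65.2% held CCAAT. In the 31 DNA replication genes with a window, the CHR letters were in 9.68% and CCAAT in 64.5%, close to the share of the members. E2F letters (TTTGGCGC, TTTCCCGC, TTTGCCGC or TTTCGCGC, both strands) were in 35.5% of these 31, against 12.8% of the members and 2.60% of all genes. The letters GGGNGTGG, a core of Klf binding sites, were in 12 members (25.5%), against 19.7% of all genes. Some genes have more than 1 window, and among those with 1 the CHR letters were in 71.4% of the members and in 18.5% of all genes.

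Among the members with a window, the CHR letters were near the start in 6 of the 13 called lower with TGFβ in siControl arrays and in 26 of the 33 not called there. The cytokinesis genes Cep55 and Ect2, whose letters are shown above, belong to the second kind, and Cdc25b, Melk and Nuf2, with no such letters in their windows, to the first. Bub3, with the smallest decrease of all members, holds CHR letters, so a match did not go with a large decrease in every member. It has 2 windows, and its positions of −43 and −167 can be the same letters counted from 2 start sites. A match of letters is not a measured binding site.

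**Figure D5:**
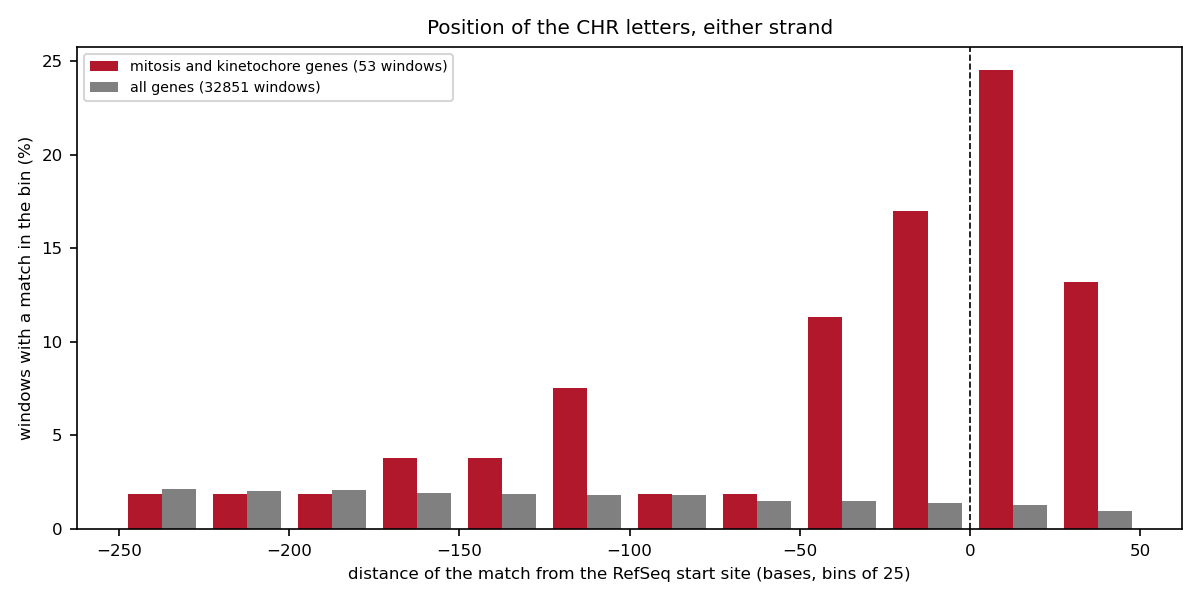
Share of promoter windows with a match of the CHR letters on either strand (vertical axis, %) by distance from the RefSeq start site (horizontal axis, bins of 25 bases) for the 53 windows of the mitosis and kinetochore genes in red and for all 32851 windows in grey. The share of the members' windows is highest in the 25 bases from the start site onward, at 24.5%, where that of all windows is 1.31%.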

How the data were processed

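Total RNA of NMuMG cells had been hybridised to 8 Affymetrix whole-transcript arrays. Raw signals were normalized by the authors with RMA, and the deposited values are log2 values, 1 per probe set and array. The base of the logarithm was read from the range of the values. The submitters' processing notes name oligo 1.14.0, and background settings are not given in the sources used here. Groups and replicate numbers were taken from the sample labels.

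Of 34760 probe sets, 21640 had 1 symbol in the platform's annotation, 1321 had several and 11799 were not listed. The symbols of 21553 probe sets were matched to RefSeq by Entrez ID, and 0 changed. Where a gene had several probe sets (954 genes), only the brightest by its mean was used, and 19937 genes remained. The model was fitted with limma 3.58.1 in R 4.3.3 (lmFit on all 8 arrays with a coefficient per group, eBayes, 4 residual and 4.93 prior degrees of freedom) and gave 5 contrasts, with Benjamini-Hochberg adjustment over the 19937 genes and a threshold of 0.05. The fit was tested on simulated data. As an alternative, each contrast was tested by t-tests without moderation of the variance. The paper's own ANOVA was not repeated. Also tried were a block for the replicate number, only the 4 arrays compared, trend and robust options, quantile and cyclic loess normalization, the dimmest 30% of genes left out, the mean of a gene's probe sets, a threshold of 0.01 and each array left out.

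The members, the other lists and the tests were chosen with earlier results of these data known. All members are named. Of each other list, the genes named were up to 4 with the largest or smallest differences in siKlf4 with TGFβ. Ccne1 was named besides, for its higher value with TGFβ in siControl arrays. Promoter windows are those of RefSeq on GRCm38.p6. The Klf4 ChIP-Seq was not analysed here.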

Additional observations from a re-analysis of the deposited data

Results flagged for a closer look

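By the interaction term in limma, the decrease with siKlf4 differed between cells with and without TGFβ in 32 mitosis and kinetochore genes. The same held for 4 of the genes picked from the other lists by their siKlf4 difference with TGFβ. All 32 members lost this call at an adjusted p threshold of 0.01, and also in the t-tests without moderation of the variance. The value given is the siKlf4 difference with TGFβ minus that without, on the log2 scale, and a negative value means a larger decrease with TGFβ. Among the genes of mitotic entry it was −0.97 in Ccnb2, −0.91 in Foxm1, −0.90 in Ccna2, −0.86 in Cdk1, −0.85 in Melk and −0.77 in Plk1. Among the checkpoint genes it was −0.81 in Bub1, −0.79 in Bub1b and −0.76 in Mad2l1, and among the kinetochore genes −1.11 in Nuf2, −0.91 in Cenpn and −0.81 in Spc24. The spindle genes Kif15 (−1.04), Kif11 (−0.84), Kif2c (−0.79) and Kif22 (−0.72) and the anaphase activator Cdc20 (−0.82) passed as well. Of the condensation genes, Ncapg2 had −1.01, Mki67 −0.92, Ncaph −0.76, Top2a −0.74, Ncapg −0.72, Smc4 −0.66 and Ncapd2 −0.59, and the passenger kinase Aurkb had −0.92. Of the cytokinesis genes, Cep55 had −1.03, Kif20b −0.89, Ect2 −0.86, Anln −0.82, Prc1 −0.77, Racgap1 −0.71 and Kif20a −0.65. The genes picked from the other lists were the nucleotide enzyme gene Tk1 (−1.07), Oip5 (−0.86), Mybl2 (−0.84) and the replicative helicase gene Mcm5 (−0.82). Among genes named for other reasons, the replication gene Ccne1 was also called, at −0.64 (limma adjusted p = 0.0319). The leukocyte marker Csf1r, which was higher with siKlf4, was called in the other direction, at 0.62 (limma adjusted p = 0.0307).

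Klf4 itself had an interaction of 0.42 (adjusted p = 0.245), which was not called.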

How the results depend on the processing

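With siKlf4 under TGFβ, all 55 members were lower in every alternative. Leaving out 1 array at a time gave 55 to 55 members lower with siKlf4 under TGFβ, 50 to 52 without TGFβ, 50 to 54 for TGFβ in siKlf4, 8 to 19 for TGFβ in siControl and 0 to 31 for the interaction. At a threshold of 0.01, 9 members were lower with TGFβ in siControl and 0 in the interaction, where 52 had a negative value at an unadjusted limma p under 0.05. In the t-tests without moderation of the variance these counts were 10 and 0, with 46 at an unadjusted p under 0.05 in the interaction. With trend and robust options, the interaction was called in 45 members. The replicate number as a block gave 55 and 53 members lower with siKlf4 with and without TGFβ, 18 and 54 with TGFβ in siControl and siKlf4, and 35 for the interaction. Nothing states that the numbers pair the arrays, and the replicate differences of the groups compared correlated at 0.38, 0.04, 0.01 and −0.00 in the 4 pairwise comparisons. Of the values of single genes and medians under the alternatives, 5980 counted as unchanged. A gene did so where it stayed on its side of the threshold, and a median where it moved by less than the spread between replicates. Of the others, 414 lost and 69 gained a call and 5 medians moved by more than that spread. Among the 5980, 40 changed sign, none of them a median or a value called in either fit. The cause of these changes was not tested beyond the settings themselves. Arrays give no counting error, and signal over background is not known per probe set. The interaction had larger standard errors than the pairwise differences (0.117 against 0.0827 for Cdk1). The fit on only the arrays compared was not made for the interaction, which uses all 8.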
